A study of Mus musculus with 3 samples.

Results

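The genes described are 54 Wnt ligands, receptors and secreted antagonists, with the enzymes that process the ligands, in single cells of the adult mouse testis. They were taken by symbol from the gene tables of the 3 libraries, and all 54 were found among 32285 genes. They comprise 16 ligands, 3 ligand processing genes, 10 Frizzled receptors, 5 co-receptors, 7 R-spondins and Lgr receptors, 2 ubiquitin ligases, and 11 secreted antagonists and their receptors.

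The study profiled dissociated testis cells of adult C57BL/6N mice by droplet 3′ RNA sequencing, in which a unique molecular identifier (UMI) lets the copies of a molecule be counted once. Both wildtype libraries came from 1 mouse each and are called wildtype replicate 1 and wildtype replicate 2. In the third, 2 mice carrying a conditional Tex10 knockout were pooled; Tex10 encodes a nuclear protein. Neither a Cre driver nor deleted exons are named in the labels, so the cells that lost Tex10 are not known from them. Where 3 values follow each other below, they belong to wildtype replicate 1, wildtype replicate 2 and the library labelled knockout, in that order.

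Wnt proteins are secreted lipid-modified signals. The acyltransferase Porcn adds the lipid, the carrier Wls brings the ligand to the cell surface, and Frizzled receptors with the co-receptors Lrp5 and Lrp6 pass the signal to β-catenin, while Ror and Ryk receptors serve other branches. R-spondins and Lgr receptors protect Frizzleds from the ubiquitin ligases Znrf3 and Rnf43. Sfrp, Wif and some Dkk proteins block the ligands or the co-receptors. In the testis, Wnt signals are best known from the spermatogonial niche and from gonad development.

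The libraries held 93418341, 96001773 and 147783171 UMIs over 9967, 10153 and 12918 barcodes. The knockout label could not be checked with Tex10 itself, because 3′ counts may come from outside the deleted part. Tex10 stood at 140, 125 and 131 CPM (the gene's UMIs per 1000000 UMIs of a class) in spermatogonia and at 170, 152 and 143 in early spermatocytes. Cells were clustered without the 54 genes, and clusters were called spermatogonia-like, Sertoli-like and so on from markers, with the ending left out below. This gave 5 germ cell and 6 somatic classes. The germ cell classes held 236 to 2009 cells per library and the peritubular myoid class 92 to 97. The other 5 somatic classes were small, with 13 to 63 cells per library. A further 4336, 3316 and 7389 barcodes fell into clusters of low UMI totals and were kept apart. The 3 pairs of libraries shared 28, 30 and 27 barcodes. In the wildtype libraries the endothelial class was weakly supported: its 9 endothelial markers summed to 214 and 101 CPM, against 2038 CPM in the library labelled knockout. Its 8 peritubular myoid markers summed to 9131, 5411 and 4289 CPM, above the endothelial ones in each library, and protamine Prm1 was at 63959, 60962 and 39619 CPM. Endothelial values are given with these limits.

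Levels are UMIs of a gene per library and class, scaled by the class total. Each molecule gives 1 counted end, so no length correction applies. A gene was taken to reach a class when its mean over the libraries was at least 20 CPM and each library held at least 3 of its UMIs there. By this measure 19 of the 54 genes reached at least 1 class, against 38.6% of all genes in the files. Of these 19, 16 were highest in a somatic class, against 37.2% of all genes that reached a class. The peritubular myoid cells, the contractile cells around the tubule, were the highest class of 10 of the 19, against 8.89% of all genes that reached a class. Sertoli cells were highest for 3 (11.3% of all such genes), macrophages for 2 (4.18%) and Leydig cells for 1 (7.9%). The remaining 3 were Wnt3 in elongating spermatids (5.9%), Fzd3 in spermatogonia (14.6%) and Znrf3 in early spermatocytes (15.3%). For 10 of the 19, the highest class lay above each other class in every library, against 60.4% of all genes that reached a class.

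**Figure D1:**
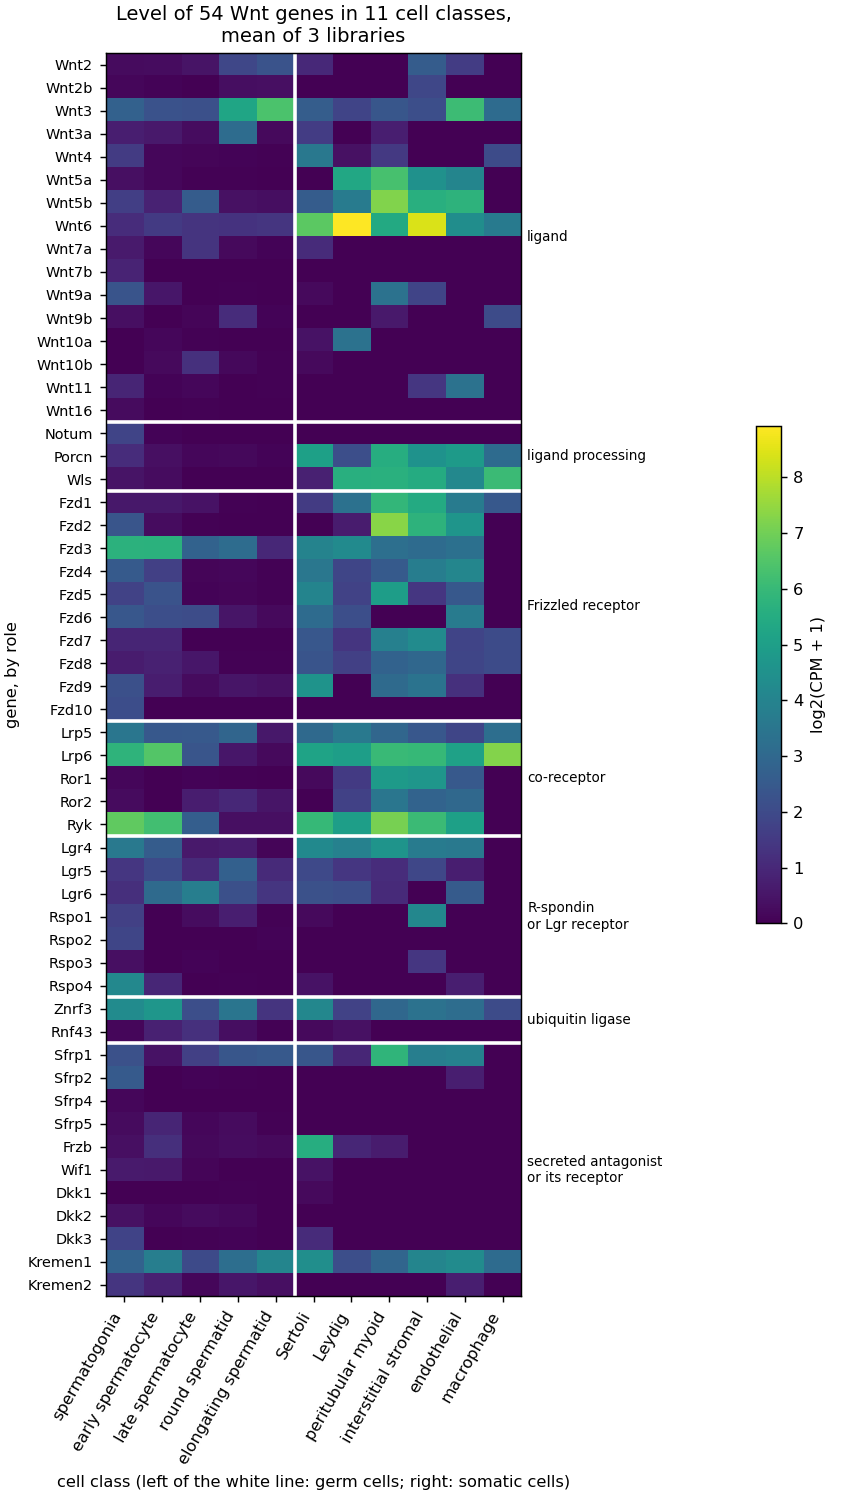
Mean level of the 54 genes (rows, grouped by role) in 5 germ cell and 6 somatic classes (columns), as log2 of CPM plus 1 over the 3 libraries. The brightest squares are Wnt6 in Leydig and interstitial stromal cells. The late spermatocyte column has 0 of 54 genes at 20 CPM, and the round and elongating spermatid columns have 1 each. Genes under 1 CPM number 38, 42 and 46 in these 3 columns.

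Sequences upstream of the start site are shown for 5 genes that mark different cells below: Wnt3a and Wnt3 of spermatids, Wnt6 of Leydig cells, Rspo4 of spermatogonia and Frzb of Sertoli cells. They are the 250 bases before the start, 5′ to 3′ on the gene's strand, from RefSeq on GRCm38.p6. The windows are chr11:59290752-59291001 on the minus strand for Wnt3a, chr11:103773925-103774174 on the plus strand for Wnt3, and chr1:74771642-74771891 on the plus strand for Wnt6. Those of Rspo4 and Frzb are chr2:151842677-151842926 on the plus strand and chr2:80447397-80447646 on the minus strand. Capitals mark the match to a searched motif.
Wnt3a: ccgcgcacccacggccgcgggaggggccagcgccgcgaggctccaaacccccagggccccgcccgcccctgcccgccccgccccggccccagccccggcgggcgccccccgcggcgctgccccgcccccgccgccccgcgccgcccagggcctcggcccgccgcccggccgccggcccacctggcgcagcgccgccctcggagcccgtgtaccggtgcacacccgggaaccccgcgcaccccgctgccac
Wnt3: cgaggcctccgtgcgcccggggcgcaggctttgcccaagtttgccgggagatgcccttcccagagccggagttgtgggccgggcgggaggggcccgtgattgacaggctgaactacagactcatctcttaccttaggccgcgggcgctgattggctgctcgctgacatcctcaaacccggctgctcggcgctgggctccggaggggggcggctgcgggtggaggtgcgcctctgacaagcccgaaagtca
Wnt6: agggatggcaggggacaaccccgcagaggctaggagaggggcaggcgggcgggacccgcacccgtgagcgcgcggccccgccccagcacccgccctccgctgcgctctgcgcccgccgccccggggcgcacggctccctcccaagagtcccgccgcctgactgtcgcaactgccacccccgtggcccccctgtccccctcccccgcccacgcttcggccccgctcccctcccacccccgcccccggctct
Rspo4: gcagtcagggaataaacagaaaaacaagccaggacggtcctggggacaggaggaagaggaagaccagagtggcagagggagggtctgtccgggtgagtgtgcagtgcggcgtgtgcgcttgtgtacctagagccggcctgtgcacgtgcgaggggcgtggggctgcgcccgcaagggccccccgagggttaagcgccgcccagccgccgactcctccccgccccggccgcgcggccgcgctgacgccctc
Frzb: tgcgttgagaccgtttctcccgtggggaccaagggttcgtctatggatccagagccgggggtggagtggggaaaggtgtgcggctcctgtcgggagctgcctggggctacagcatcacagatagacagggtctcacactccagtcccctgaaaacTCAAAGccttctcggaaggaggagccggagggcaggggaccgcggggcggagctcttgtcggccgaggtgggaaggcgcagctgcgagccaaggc

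The windows were searched on both strands for CTTTGA (TCF/LEF, the DNA-binding partners of β-catenin), TGACGTCA (CRE), AAGGTCA (NR5A1) and ACAAT (SOX). The single match in the 5 windows was TCF/LEF in Frzb, read as TCAAAG. The GENCODE M21 annotation places the start of Frzb at chr2:80447625. By that start, most of the Frzb window lies inside the gene, the match included. It places the start of Wnt3 at chr11:103774150, so the last bases of the Wnt3 window also lie inside the gene. The promoter table held 39 windows for 35 of the 54 genes. TCF/LEF occurred in 6 of the 39 (Dkk1, Frzb, Fzd1, Ror1, Wnt11 and Wnt5b), against 13.8% of 32851 windows of the same length. ACAAT occurred in 3, against 27.7%, and the CRE and NR5A1 words in 0, against 1.55% and 4.08%. A match is a description of the letters and not of a binding site. Base composition differed between the windows, with a G and C content of 87.6% for Wnt3a and 64.4% for Frzb.

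Of the 16 ligands, Wnt3, Wnt5a, Wnt5b and Wnt6 reached 20 CPM: Wnt6 in the interstitium, Wnt5a and Wnt5b around the tubule and Wnt3 in spermatids. Wnt6, a ligand of epithelial and renal development, lies at chr1:74771892-74785322 (GRCm38, GENCODE M21). In Leydig cells, the androgen producers of the interstitium, it stood at 409, 493 and 547 CPM. In interstitial stromal cells it stood at 343, 391 and 278 CPM. Leydig cells were thus above stromal cells in each library, and these were the highest levels of any of the 54 genes. Sertoli cells, which nurse the germ cells, held 131, 91.7 and 80.5 CPM. In the 5 germ cell classes Wnt6 lay between 0.505 and 2.05 CPM, at most 0.502% of its Leydig level. In stromal cells Wnt6 was at 84.1%, 79.3% and 50.9% of its Leydig level, and Insl3, the Leydig hormone gene, at 0.936%, 0.409% and 1.12% of its own. The part of Leydig RNA or cells in the stromal value was not tested.

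Wnt10a is the next protein-coding gene downstream of Wnt6 on the same strand, with 6193 bases between them. It was also highest in Leydig cells, at 8.17, 9.3 and 10.2 CPM from 4, 4 and 11 UMIs. In the germ cell classes its mean was at most 0.114 CPM.

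Wnt5a and Wnt5b, ligands best known for signals that do not pass through β-catenin, were highest in peritubular myoid cells. Wnt5b stood there at 126, 172 and 145 CPM, and at 38.2, 65.1 and 40.4 CPM in stromal cells. The myoid level was 3.3, 2.63 and 3.58 times the stromal one. Wnt5a stood at 90.9, 73.2 and 71.7 CPM in myoid cells and at 42.9, 30.2 and 47.2 CPM in Leydig cells. Both genes were separate from each other class in all libraries. In germ cells they parted: Wnt5a had a mean of at most 0.296 CPM in any germ cell class, while Wnt5b held 5.28, 4.6 and 5.47 CPM in late spermatocytes.

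Wnt3, a ligand of the β-catenin branch, was a spermatid transcript. It stood at 38.7, 25.6 and 45.3 CPM in round spermatids and at 83.2, 77.4 and 90 CPM in elongating spermatids. The earlier germ cells held 2.4 to 8.59 CPM, which was 2.89% to 9.55% of the elongating level. Prm1, a transcript of elongating spermatids that spread into every class, stood at 1.78% to 3.32% of its own level in the same earlier germ cells. How far free RNA adds to the low Wnt3 values was not tested. The endothelial class held 51.7, 101 and 51 CPM of Wnt3 together with 61.8%, 59.1% and 42.5% of the elongating Prm1 level. Elongating cells of the libraries fell into partly different clusters: one led by Col16a1 held 453, 632 and 12 cells, and another 131, 99 and 739. Wnt3 was at 102, 97.9 and 61.9 CPM in the first and at 96.1, 87.9 and 108 CPM in the second.

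The round spermatids formed 2 clusters, and Wnt3 and Wnt3a divided between them. Wnt3 was at 3.51, 3.45 and 2.95 CPM in the cluster led by 4930596D02Rik and at 84.7, 78.8 and 95.6 CPM in the cluster led by Faiml, which was 24.2, 22.8 and 32.4 times higher. Wnt3a, a close relative of Wnt3, took the opposite order, with 14.4, 11.1 and 5.62 CPM in the former and 5.42, 4.14 and 1.97 CPM in the latter. In elongating spermatids Wnt3a had a mean of 0.159 CPM. The cluster with little Wnt3 held 222, 523 and 312 cells and the other 263, 242 and 312, so the low class value of Wnt3 in wildtype replicate 2 goes with a small share of Wnt3-rich cells. Its part in that value was not tested.

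Both genes stand beside another Wnt gene on chromosome 11 with no protein-coding gene between them, in divergent orientation. Wnt9a lies 16175 bases from Wnt3a, and Wnt9b lies 24328 bases from Wnt3. Wnt9a did not share the highest class of Wnt3a. It was highest in myoid cells, at 8.74, 4.18 and 15.3 CPM, with a mean of 4.01 CPM in spermatogonia. Among germ cell classes Wnt9b had its highest mean in round spermatids, where Wnt3 was also raised, but at only 1.2 CPM. Its highest class, macrophages, rested on 1 of its 84 UMIs.

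**Figure D2:**
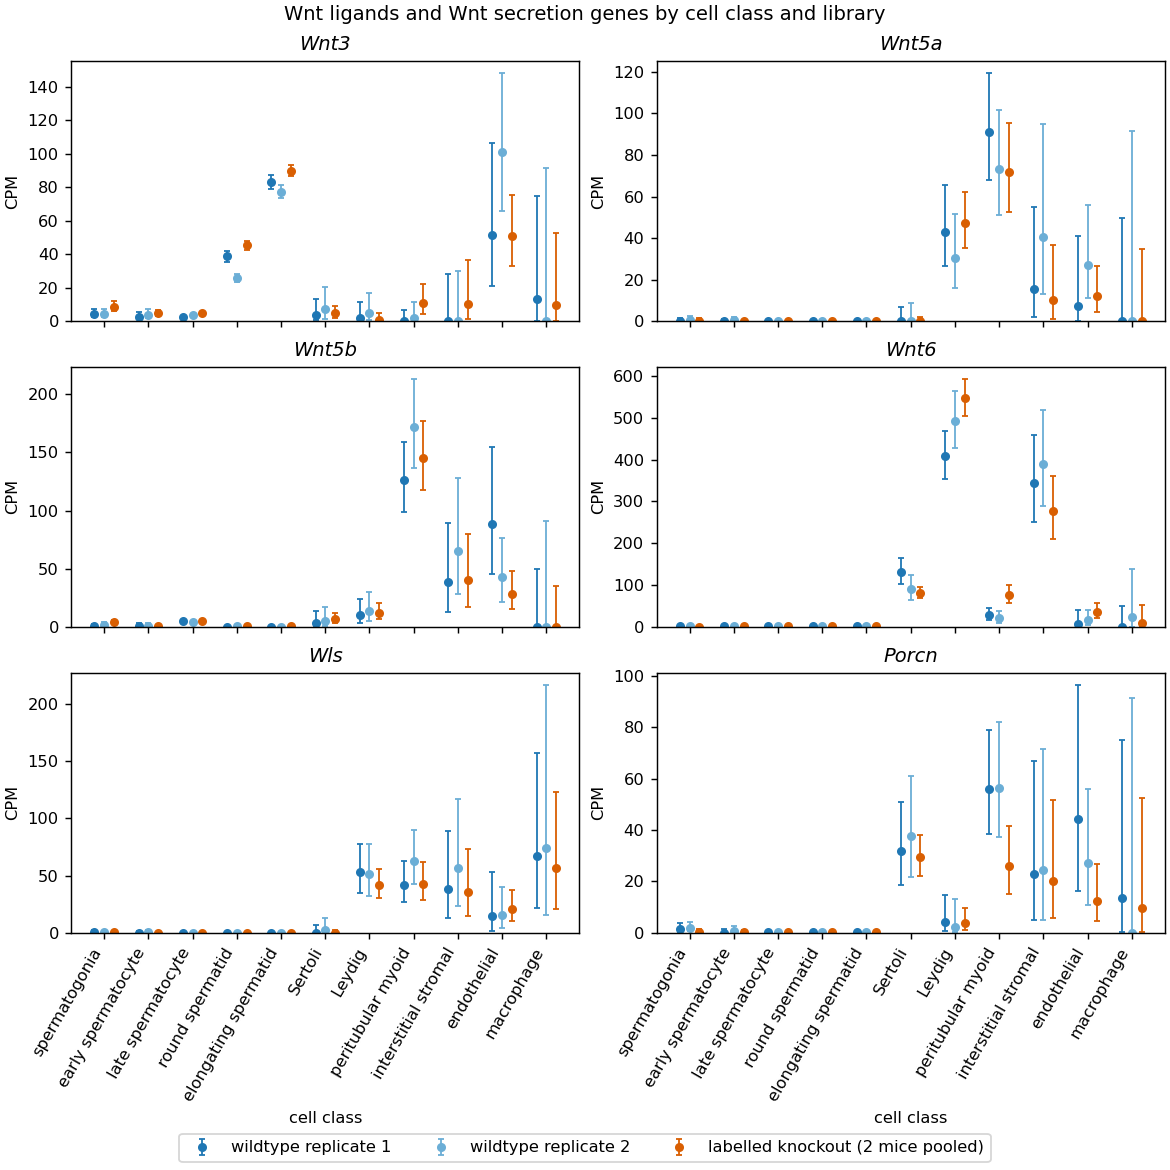
CPM (vertical axis, from 0) of 4 ligands and of Wls and Porcn in 11 cell classes (horizontal axis), 1 point per library with its 95% Poisson counting interval. Wnt3 is high in spermatids where Wls and Porcn are at or near 0, and Wnt6 is high in Leydig and interstitial stromal cells in all 3 libraries.

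The other ligands stayed under 20 CPM. Wnt4, a ligand of female gonad development, had its highest mean in Sertoli cells, but 13 of its 17 UMIs there came from 2 cells of wildtype replicate 2. Of its 3′ sequence words, 16.4% occur in other genes, so its counts are uncertain. Wnt7a and Wnt10b were highest in late spermatocytes, at 1.65, 1.35 and 1.56 CPM and at 1.39, 1.17 and 1.52 CPM. Wnt2 was detected in elongating spermatids with a mean of 3.86 CPM, and its stromal value of 5.09 CPM rested on 2 UMIs. Wnt11, highest in endothelial cells at 9.26 CPM, shares its last exon with a gene on the other strand. Wnt2b, Wnt7b and Wnt16 held 41, 11 and 8 UMIs over all named cells.

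The ligand processing genes were set against the ligands by cell. Wls, the carrier of Wnt ligands, stood at 53.1, 51.2 and 41.6 CPM in Leydig cells, at 42, 62.8 and 42.7 CPM in myoid cells and at 38.2, 57 and 35.4 CPM in stromal cells. Macrophages had the highest mean, at 67.4, 74.3 and 56.5 CPM, in 16, 14 and 21 cells. The lowest macrophage library lay under the highest myoid one, so those classes overlapped. In macrophages 3 UMIs correspond to 40.4, 74.3 and 28.2 CPM. In round spermatids Wls had 0 UMIs in each library, which allows at most 0.221, 0.166 and 0.117 CPM for 3 counts. In elongating spermatids it had 1 UMI in all. The spermatids, the cells with the most Wnt3, therefore held no detectable Wls at this depth, and Sertoli cells held 0, 2.35 and 0 CPM beside their Wnt6.

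Porcn, the acyltransferase, was highest in myoid cells at 56, 56.5 and 25.9 CPM and held 31.8, 37.6 and 29.3 CPM in Sertoli cells. It differed there from Wls, which Sertoli cells nearly lacked. Leydig cells showed the opposite, with 4.09, 2.33 and 3.7 CPM of Porcn. Spermatids held at most 0.221 CPM. Notum, the esterase that removes the lipid from Wnt proteins, was highest in spermatogonia at 3.22, 1.91 and 2.53 CPM.

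Among the Frizzled receptors, Fzd1, Fzd2, Fzd3, Fzd5 and Fzd9 reached 20 CPM. Fzd2 was the most abundant and marked myoid cells, at 154, 188 and 140 CPM, with 45.8, 65.1 and 50.6 CPM in stromal cells. Fzd1 stood at 70, 71.1 and 35.1 CPM in myoid cells and at 61.1, 32.6 and 35.4 CPM in stromal cells, so those classes overlapped. Fzd5 stood at 33.2, 33.5 and 24.4 CPM in myoid cells. An opposite-strand gene lies over its last exon, and with the use of strand not given, whether reads of that gene were counted for Fzd5 is not known. Fzd9 was highest in Sertoli cells, at 24.3, 28.2 and 16.7 CPM. The lowest Sertoli library lay just above the highest stromal library, at 16.3 CPM.

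Fzd3, known for axon guidance and planar cell polarity, was the Frizzled of early germ cells. It stood at 53.3, 50.6 and 52.8 CPM in spermatogonia and at 53, 54.5 and 44.5 CPM in early spermatocytes, which did not differ beyond their spread. In late spermatocytes it stood at 5.77, 6.69 and 5.45 CPM, so the early level was 9.19, 8.15 and 8.15 times higher. Of the other 5 Frizzleds, Fzd4 and Fzd6 had their highest mean in endothelial cells (16.1 and 12.2 CPM), from 20 and 18 UMIs of the library labelled knockout and 1 or 0 in each wildtype library. Fzd6 held 592 UMIs over all named cells, with means of 7.7 CPM in Sertoli cells, 4.3 CPM in spermatogonia and 3.4 CPM in early spermatocytes. Fzd7 and Fzd8 were highest in stromal cells, at 18.7 and 6.94 CPM. Fzd10 was found nearly only in spermatogonia: 32 of its 34 UMIs lay there, at 3.94, 2.86 and 3.03 CPM.

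The co-receptor Lrp6, which passes the signal to β-catenin, was shared by early germ cells and somatic cells. It stood at 63, 49.9 and 50.5 CPM in spermatogonia and at 92.7, 89.6 and 90.6 CPM in early spermatocytes. In late spermatocytes it stood at 4.29, 3.37 and 4.49 CPM, so the early level was 21.6, 26.6 and 20.2 times higher. Round spermatids held at most 0.515 CPM. Macrophages were its highest class, at 121, 198 and 141 CPM from 9, 8 and 15 UMIs. Lrp5, its relative, never reached 20 CPM, but kept 9.87, 10.7 and 11.4 CPM in the round spermatid cluster with little Wnt3, where Lrp6 had at most 0.628 CPM.

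Ryk, a receptor with an inactive kinase domain, followed the Lrp6 course in germ cells. It stood at 106, 115 and 94.5 CPM in spermatogonia, 88.2, 65.9 and 67.2 CPM in early spermatocytes and 5.51, 5.67 and 4.63 CPM in late spermatocytes. Its highest class was myoid, at 129, 146 and 125 CPM, and macrophages held 0 UMIs. Ror1, a receptor of Wnt5a, stood at 42, 18.8 and 22.9 CPM in myoid cells and at 22.9, 40.7 and 10.1 CPM in stromal cells, which overlap. Its mean was at most 0.119 CPM in germ cells. Ror2 was highest in myoid cells too, at 10.5, 8.37 and 12.2 CPM.

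Of the R-spondins and Lgr receptors, Lgr4 alone reached 20 CPM, with 21, 27.2 and 22.9 CPM in myoid cells and 11.2, 32.9 and 9.41 CPM in Sertoli cells. The highest germ cell means of the Lgr receptors lay in different classes, but the receptors overlapped. In early spermatocytes Lgr6 had a mean of 7.47 CPM and Lgr5 of 3 CPM, and Lgr6 had 3.48 CPM in round spermatids. Lgr4 stood at 12.5, 12.1 and 8.84 CPM in spermatogonia, Lgr6 at 12.2, 13.2 and 13.4 CPM in late spermatocytes and Lgr5 at 6.47, 4.98 and 5.35 CPM in round spermatids. Each was at 1.57 CPM or less in the mean of the elongating class. Rspo4 was a spermatogonial transcript, at 17.5, 13.7 and 19.2 CPM, with a mean of 0.966 CPM in early spermatocytes. Rspo1 was highest in stromal cells at 7.63, 16.3 and 25.3 CPM, from 1, 2 and 5 UMIs. Rspo2 and Rspo3 held 34 and 15 UMIs over all named cells.

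The ubiquitin ligase Znrf3, which removes Frizzled receptors from the membrane, was highest in early spermatocytes, at 30.4, 25.9 and 17.4 CPM, and stood at 19, 20 and 17.7 CPM in spermatogonia. It was at 2.85, 4.06 and 3.34 CPM in late spermatocytes and at 10.1, 9.74 and 9.89 CPM in round spermatids. Rnf43, its relative, was highest in late spermatocytes at 1.46, 1.48 and 1.08 CPM.

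**Figure D3:**
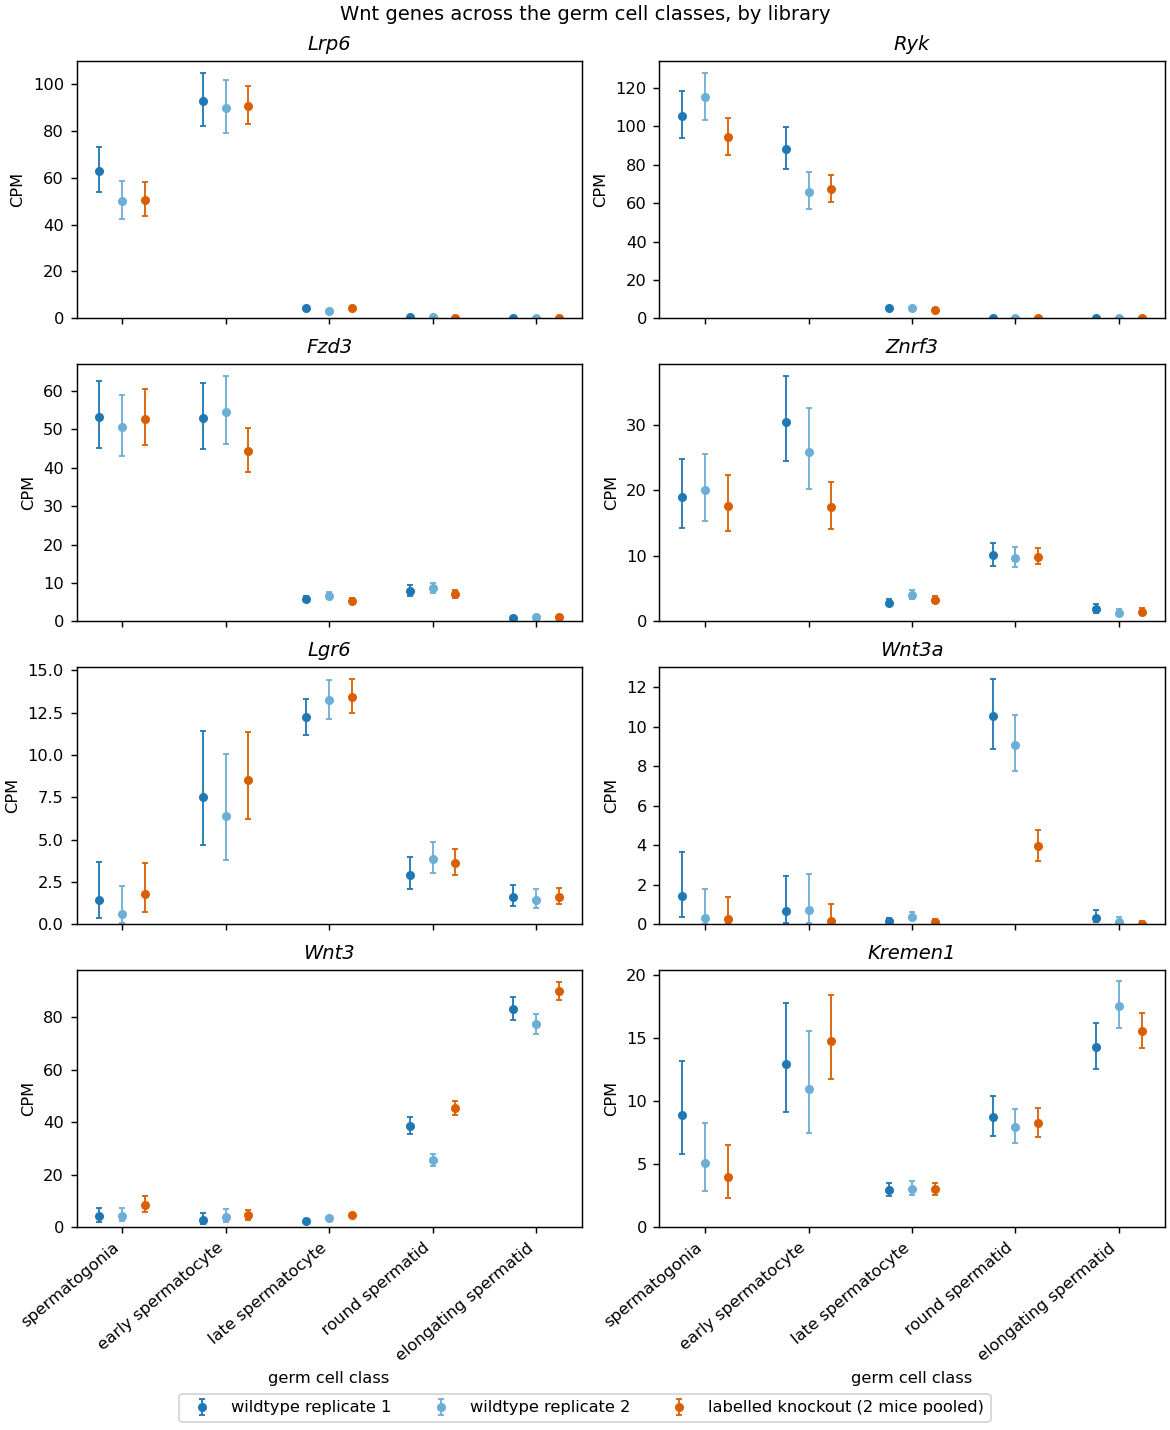
CPM (vertical axis, from 0) of 8 genes in the 5 germ cell classes (horizontal axis), 1 point per library with its 95% Poisson counting interval. Lrp6, Ryk and Fzd3 are high in spermatogonia and early spermatocytes and under 10 CPM from late spermatocytes on, while Wnt3 is high in spermatids.

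Of the secreted antagonists and their receptors, Sfrp1, Frzb and Kremen1 reached 20 CPM. Sfrp1, which binds Wnt ligands, stood at 52.5, 54.4 and 59.5 CPM in myoid cells, with at most 24.4 CPM in any library of any other class. Frzb, a protein of the same family, was a Sertoli transcript, at 29.9, 54 and 53.9 CPM, and lay at a mean of at most 1.3 CPM in each other class. Kremen1, a receptor of Dkk proteins, was broad: 18.7, 30.6 and 12 CPM in Sertoli cells and 14.3, 17.6 and 15.6 CPM in elongating spermatids, which overlap. Within the elongating class Kremen1 was at 37, 40.2 and 34.5 CPM in the cluster led by Spem2 and at 8.12 to 16.2 CPM in the other 3 clusters. In the low-UMI elongating barcodes it was at 73.6, 70.8 and 98.5 CPM. Of its 3′ sequence words, 2.77% occur in other genes.

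The Dkk genes gave few counts. Dkk1, Dkk2 and Dkk3 held 4, 36 and 38 UMIs over all named cells. Sfrp4 held 1, Wif1 26 and Sfrp5 38. Sfrp2 was highest in spermatogonia, at 4.3, 6.36 and 3.54 CPM, with an opposite-strand gene over its last exon. Kremen2 was highest in spermatogonia at a mean of 1.6 CPM, and 18.3% of its 3′ words occur in other genes.

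Within the spermatogonia, 7 groups were formed, again without the 54 genes. Group 6 held 24, 29 and 28 cells with Gfra1 at 32.4 CPM, Zbtb16 at 137 CPM and Sall4 at 138 CPM, genes of undifferentiated spermatogonia. Group 1 held 61, 67 and 66 cells with Kit at 149 CPM and Stra8 at 466 CPM, genes of differentiating spermatogonia. Stra8 was high in group 6 too, at 336 CPM, where Kit was at 37.5 CPM. Kit was also at 113 CPM in group 3 and 131 CPM in group 4. Several members peaked in group 6. The R-spondin Rspo2 was at 10.3, 13.5 and 14.4 CPM there, and 18 of the 27 spermatogonial UMIs came from it. Fzd2 was at 10.3, 27 and 25.2 CPM in group 6 and at 3.47, 1.32 and 1.61 CPM in group 1.

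From the list of secreted antagonists and their receptors, this group held Sfrp2, Sfrp1 and Dkk3. Sfrp2 was at 18, 31.5 and 10.8 CPM in group 6 and at 5.78, 6.6 and 6.44 CPM in group 1. Sfrp1 was at 15.5, 18 and 10.8 CPM in group 6 and at 4.63, 3.96 and 4.83 CPM in group 1. In each library both genes were higher in group 6. Dkk3 was at 7.73, 6.74 and 27 CPM in group 6, from 3, 3 and 15 UMIs. Groups 3, 4 and 5 held 0 UMIs of Sfrp1, Sfrp2 and Dkk3. Sfrp1 and Fzd2 are also myoid genes. Sfrp1 had 20 UMIs in group 6 and Wnt5a, another myoid gene, had 2. The part of RNA from other cells in these values was not tested.

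Other members spread over the groups or peaked in group 1. Rspo4 was at 18, 29.2 and 36.1 CPM in group 6, but also at 19.7, 10.6 and 14.5 CPM in group 1, so the groups overlap. Fzd10 was at 11.6, 5.28 and 8.05 CPM in group 1, and Fzd9 at 5.78, 10.6 and 10.5 CPM. Ryk, Lrp6 and Fzd3 were present in all 7 groups, with pooled levels of 78.2 to 148 CPM, 30.1 to 78.5 CPM and 38.4 to 62.3 CPM.

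**Figure D4:**
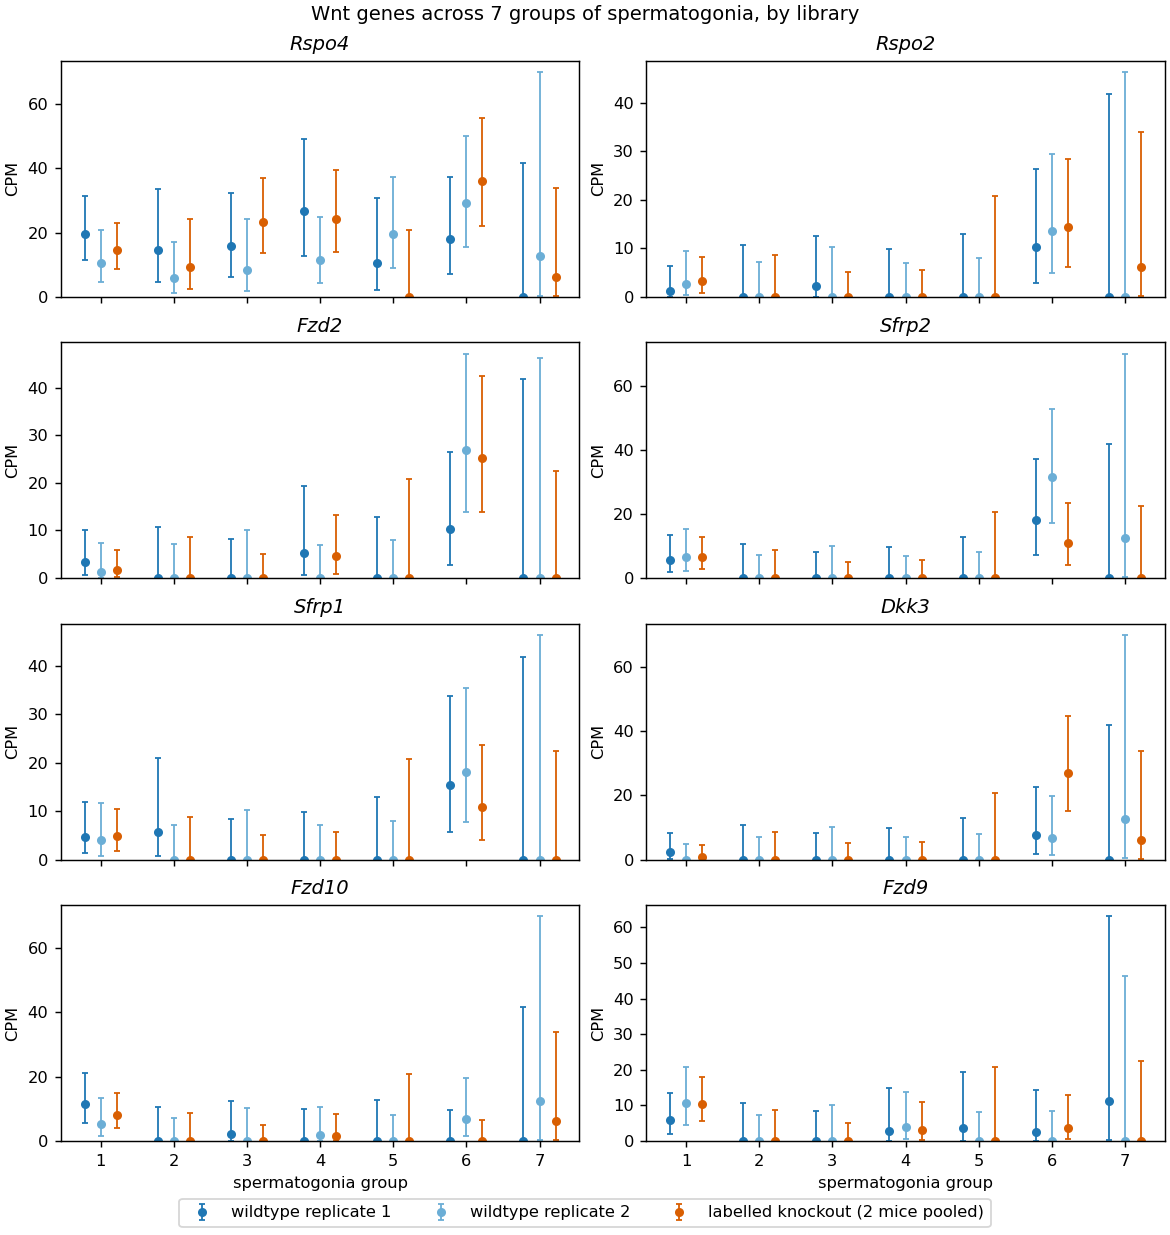
CPM (vertical axis, from 0) of 8 genes in 7 groups of spermatogonia (horizontal axis), 1 point per library with its 95% Poisson counting interval. Group 6 is high in Gfra1 and Zbtb16 and group 1 in Kit, while Stra8 is high in both. Rspo2, Fzd2, Sfrp2 and Sfrp1 have their highest pooled level in group 6, with wide intervals because each library gives few UMIs.

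The library labelled knockout was set against both wildtype libraries in the 6 classes that held 50 cells or more per library. With 1 such library there is no test, and a difference has no replicate check. A fixed size rule was used instead. After adding 1 CPM, both log2 ratios to wildtype had to share a sign and reach 1 or more in size, and to exceed the wildtype difference 2 times over. A gene entered where any library held 20 CPM.

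In germ cells no member passed. In spermatogonia 4 members were high enough to enter and 0 passed, against 0.376% of all genes entered. The same 4, Fzd3, Lrp6, Ryk and Znrf3, entered in early spermatocytes, with 0 passing against 0.262%. No member entered in late spermatocytes, where 0.647% of the genes entered passed. Wnt3 entered in round and elongating spermatids and did not pass, against 1.1% and 1.46%. Its log2 ratios were 0.22 and 0.80 in round spermatids and 0.11 and 0.21 in elongating spermatids. Scaling by the median of ratios shifts all genes of the elongating class by -0.11 on the log2 scale, after which its ratio to the wildtype mean there was 0.05 in place of 0.16.

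Lrp6 in early spermatocytes was at 91.1 ± 2.17 CPM in wildtype (SD, n = 2) and 90.6 CPM in the library labelled knockout, a log2 ratio of -0.01 to the wildtype mean. That ratio was 0.45 under the stricter cell filter, 0.10 with the top 8% of doublet scores left out and 0.20 with cells classed by marker score. Znrf3 in early spermatocytes was at 28.1 ± 3.24 CPM (SD, n = 2) against 17.4 CPM, with log2 ratios of -0.77 and -0.55. Its ratio to the wildtype mean was -0.66, and -0.05 under the stricter cell filter, so the difference depended on which cells were kept. In its Stra8-led cluster Znrf3 was at 47.7, 40.3 and 25.9 CPM, and in the Elavl3-led cluster at 18.5, 14.9 and 13.6 CPM. The former held 195, 218 and 204 cells and the latter 199, 247 and 314, so the mix of clusters moved with the class value; its part was not tested.

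Wnt3a did not enter in round spermatids because no library reached 20 CPM, and it is named here after its values were seen. It stood at 10.5, 9.08 and 3.95 CPM from 143, 164 and 101 UMIs, with log2 ratios of -1.22 and -1.03. Its counting intervals were 8.86 to 12.4, 7.74 to 10.6 and 3.21 to 4.8 CPM, so the library labelled knockout lay below both. The order was the same in both round spermatid clusters, given above, and in the low-UMI round spermatid barcodes, at 25.7, 25.6 and 9.38 CPM. These barcodes come from the same 3 libraries.

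In peritubular myoid cells 14 of the 54 members entered and 2 passed, against 2.39% of 8092 genes entered. With either wildtype library in the place of the library labelled knockout, 1.29% and 1.59% of those genes passed. Wnt6 passed as higher, against 0.779% of all genes entered. It stood at 28 and 20.9 CPM in wildtype, a mean of 24.5 ± 4.99 (SD, n = 2), and at 76.3 CPM in the library labelled knockout, from 16, 10 and 50 UMIs. Its log2 ratios were 1.42 and 1.82, and the counting intervals of 16 to 45.4, 10 to 38.5 and 56.6 to 101 CPM did not overlap across groups.

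Markers of the classes rich in Wnt6 were read in the same myoid cells. Of 9 Leydig markers, Insl3, Cyp11a1, Hsd3b6, Hsd3b1, Hsd17b3 and Lhcgr had 0 UMIs in myoid cells. The list summed to 362, 360 and 261 CPM, mostly from the 2 markers that reached 5 CPM there. Cyp17a1, higher in the library labelled knockout as Wnt6 was, had 0, 0 and 3 UMIs. In late spermatocytes Cyp17a1 stood at 0.565, 0.357 and 1.63 CPM. It was also higher in that library in early spermatocytes and in round and elongating spermatids. In spermatogonia it was lower there, at 1.43, 1.59 and 0.758 CPM. The 9 stromal markers summed to 2478, 2480 and 2389 CPM, and the 12 Sertoli markers to 301, 450 and 314 CPM. The part of other cells in the myoid Wnt6 value was not tested. In Leydig cells themselves Wnt6 was at 451 ± 59.8 CPM in wildtype (SD, n = 2) and 547 CPM in the library labelled knockout. That class was too small for the rule.

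Porcn passed as lower in myoid cells, against 1.61% of all genes entered. It stood at 56.2 ± 0.377 CPM in wildtype (SD, n = 2) and 25.9 CPM in the library labelled knockout, from 32, 27 and 17 UMIs, with log2 ratios of -1.08 and -1.09. The counting intervals overlapped, at 38.3 to 79, 37.2 to 82.2 and 15.1 to 41.5 CPM. In Sertoli cells Porcn was at 31.8, 37.6 and 29.3 CPM. The Porcn call was lost with the top 8% of doublet scores left out, with 5 CPM added and with classes taken from marker scores. Fzd1, at 70.5 ± 0.838 CPM in wildtype (SD, n = 2) and 35.1 CPM in the library labelled knockout, lay just outside the rule, with a log2 ratio of -0.99 to the wildtype mean. Of the 14 myoid members, 11 lay within 1.5-fold of the wildtype mean, among them Wnt5b (148.7 ± 32.3 CPM, SD, n = 2, against 145), Ryk (138 ± 12.1 against 125) and Sfrp1 (53.4 ± 1.37 against 59.5). How many of all genes entered lay within 1.5-fold was not counted. The median log2 ratio of the 14 members was -0.17, and that of all genes entered -0.05.

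**Figure D5:**
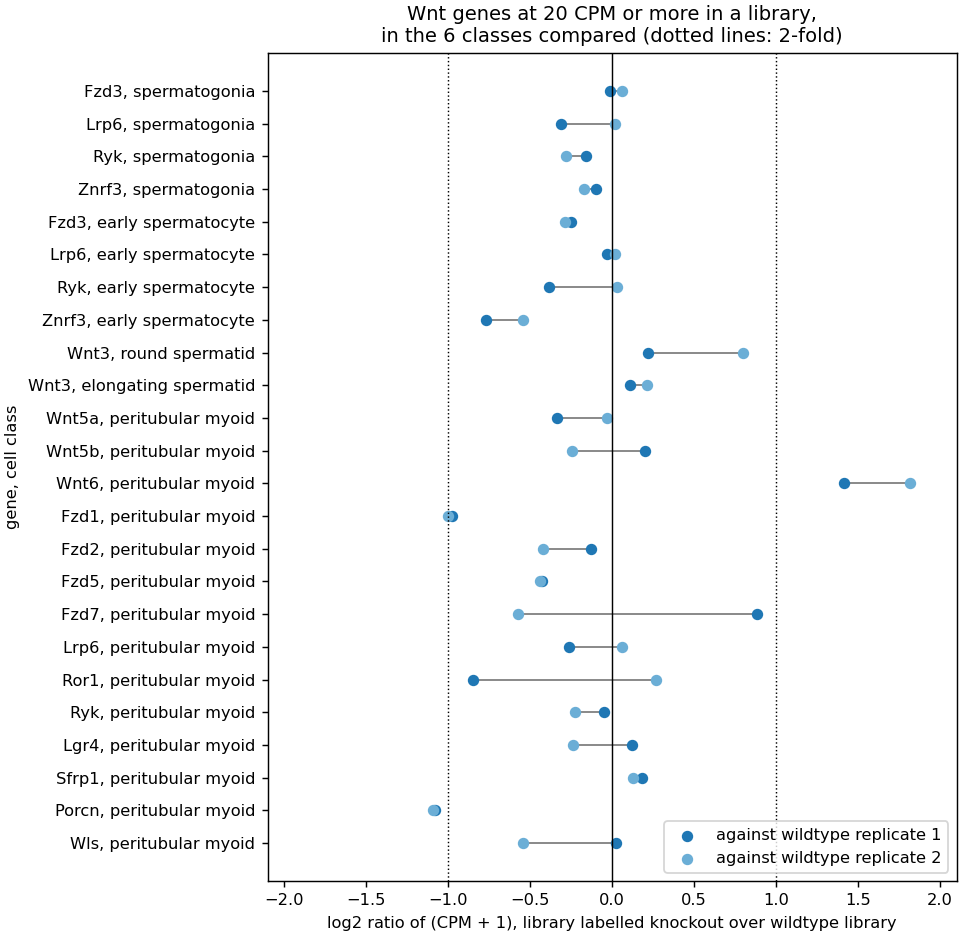
Log2 ratio of CPM plus 1 in the library labelled knockout over each wildtype library (horizontal axis) for each member that entered the size rule in a class (vertical axis), joined by a line; dotted lines mark 2-fold. Only Wnt6 and Porcn in peritubular myoid cells lie beyond the dotted lines against both wildtype libraries, and Fzd1 touches the lower line.

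Other genes of the pathway were read from 3 lists. Of 30 other Wnt genes at the membrane or outside the cell, 2 to 9 entered in a class, and 1 passed: Trabd2b, a protease gene whose product inactivates Wnt proteins, was lower in myoid cells, at 57.7, 54.4 and 16.8 CPM. The highest gene of that list was Dkkl1, an acrosomal protein related to Dkk, at 880, 1011 and 1013 CPM in late spermatocytes. Lmbr1l followed, at 106, 115 and 94.2 CPM in elongating spermatids, then Bambi at 91.6, 81.4 and 96.1 CPM in stromal cells.

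Of 49 genes of intracellular Wnt signal transduction, 7 to 41 entered in a class and 0 passed in any of the 6. The highest was Csnk1g2, a casein kinase gene, at 1150, 1170 and 1115 CPM in elongating spermatids. Usp34 stood at 470, 512 and 578 CPM in spermatogonia and Csnk1a1 at 488, 481 and 519 CPM in late spermatocytes. Of 20 Wnt target genes, 5 of them members described above, at most 6 entered in a class and 0 passed. Jun was highest in stromal cells at 2885, 2532 and 2199 CPM, Sox9 in Sertoli cells at 299, 294 and 235 CPM and Ccnd1 in spermatogonia at 210.1, 213.7 and 194.8 CPM. Lef1, a transcription factor of the pathway, was at 52.7, 52.5 and 54.5 CPM in late spermatocytes, a class in which none of the 54 genes reached 20 CPM.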

How the data were processed

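Per the file headers, the deposited matrices are the authors' unnormalised UMI counts from Cell Ranger 4.0.0; the submitters' processing notes name mm10 and Seurat 4.0.5. The annotation and the use of strand are not given in the sources used here. Gene positions come from GENCODE M21 (GRCm38), which matched 32235 of 32285 identifiers. Members and gene lists were chosen with earlier results of these data known.

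Barcodes with at least 1000 UMIs, 500 genes and at most 10% mitochondrial UMIs were kept (8134, 8337 and 12014). They were clustered without the 54 genes (scanpy 1.11.5, leidenalg 0.10.2, 2000 variable genes, 30 components, 15 neighbours, resolution 1), with somatic cells clustered again. Of 36 clusters, 20 were named from fixed markers, with at least 3 detected. The other 16, whose barcodes had a median UMI total under 3 times the lowest total deposited for their library, were set apart; this ratio was chosen after seeing the data. Class names are marker-defined, X-like groups rebuilt here, and may differ from the study's own.

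Removing the top 8% of Scrublet scores had been planned, but it took 25 of 25 and 26 of 26 Leydig cells of the wildtype libraries and 0 of 48 of the library labelled knockout. Its automatic threshold marked 4, 7 and 1 barcodes. Doublets were therefore kept, and their removal is an alternative.

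CPM values come from the UMI sums of each class in each library. Intervals are exact 95% Poisson intervals and cover counting error only. No p-value is given, because 1 library labelled knockout gives no replicate; wildtype spread is that of 2 mice. Values per library are given for members that reach 20 CPM or pass the size rule, and the rest are given by range, mean or UMI count, mostly with their highest class. The 54 genes were compared for words of 31 bases in the last 500 bases of their transcripts.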

Additional observations from a re-analysis of the deposited data

How the results depend on the processing

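Other settings were the stricter cell filter, Leiden resolution 2, low-UMI clusters named, classes by marker score, doublet removal and median-of-ratios scaling. Over them 14 to 19 members reached 20 CPM and 11 to 16 were highest in a somatic class. Levels were read only in classes with at least 10 cells in every library. Under the stricter cell filter peritubular myoid cells were the only somatic class left. Leydig cells there numbered 7, 3 and 12 and macrophages 10, 5 and 14. With doublet removal, Sertoli and myoid cells were left, as Leydig cells numbered 0, 0 and 47 and macrophages 7, 13 and 23. A minimum of 10 CPM in place of 20 CPM gave 24 members. Leaving out either wildtype library gave 18 to 19 members that reached 20 CPM, 15 to 16 highest in a somatic class and 2 to 2 past the size rule, Wnt6 and Porcn each time. Without the endothelial class, added after seeing the data, the counts were 19 and 16. The count of members past the size rule was 1, Wnt6, with the top 8% of doublet scores left out, with each cell classed by its marker score, and with 5 CPM added. It was 5 with no filter on low CPM (Wnt3a, Wnt6, Wnt9b, Lrp5 and Porcn). The stricter cell filter and the 1.5-fold threshold gave 3, with Fzd1. The cause of these moves was not tested. The share of all genes passing is given only for the main rule, so these counts have no background beside them. Of 198 log2 ratios over 22 gene and class pairs and 9 settings, 163 moved by less than the wildtype spread and 35 moved further. The sign differed from the reported one in 17 of the 198, over 10 ratios, none of them past the size rule as reported; the largest such value was 0.45, Lrp6 in early spermatocytes under the stricter cell filter. Under that filter Fzd3 in early spermatocytes was at 0.26 in place of -0.27, and without wildtype replicate 1 Ror1 in myoid cells was at 0.27 in place of -0.40. No paired analysis was possible because the groups share fewer than 2 replicate numbers, and the third library, which pools 2 mice, is numbered only by order. The somatic classes other than myoid hold 13 to 63 cells per library, so 3 UMIs correspond to 1.57 to 74.3 CPM there.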
